A study of Mus musculus with 12 samples.

Results

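The vomeronasal type 2 receptor (Vmn2r) genes of the mouse were examined for histone H3 lysine 9 trimethylation (H3K9me3) in neural progenitors with a knockout (KO) of Setdb1 and in wild-type (WT) progenitors. The members are all regions of the authors' deposited H3K9me3 table whose gene symbol begins with Vmn2r on chromosomes 1 to 19, grouped by gene and by chromosome cluster. There were 192 such regions of 50654 listed, at 82 gene symbols on 7 chromosomes. The KO cells carry the genotype label Nestin-KO, and the study's title names the histone methyltransferase SETDB1. A Nestin-driven deletion acts in neural progenitors, and the share of cultured cells that lost the gene is not given. The KO and WT libraries came from neurospheres of the ganglionic eminence of C57BL/6 embryos at day E15.5, with 3 animals per genotype for each of 2 marks. Every library held 100000 nuclei. For H3K9me3 all 3 KO animals were male, whereas 1 WT animal was male and 2 were female. Sex and genotype are thus not fully separate, although every member lies on an autosome. The leading title numbers pair only 1 KO with 1 WT animal for this mark. The second mark, acetylation of histone H3 at lysine 27 (H3K27ac), was read from other animals.

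Vmn2r genes encode receptors of the class C family of G protein-coupled receptors, with a large extracellular domain that binds ligands. They are made by sensory neurons in the basal layer of the vomeronasal organ, where they detect peptide and protein pheromones such as exocrine gland-secreting peptides and major urinary proteins. Each such neuron makes very few of these receptors, usually together with a receptor of family C, the genes Vmn2r1 to Vmn2r7, and signals through the G protein subunit Gαo and the channel TRPC2. The genes lie in tandem arrays of close copies. H3K9me3 marks silent chromatin, SETDB1 is one of the enzymes that place it, and H3K27ac marks active promoters and enhancers.

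The start of a Vmn2r gene usually holds few CG dinucleotides. Sequences of 300 bases, from 250 before a gene's start to 50 after it, were taken from RefSeq (GRCm38.p6) for 116 Vmn2r symbols, 75 of which had a listed region; Vmn2r29 has 2 starts, which gave 117 windows. CG was counted on the printed strand, and the 2-letter motif reads the same on both strands. A listed H3K9me3 region overlapped 5 of the windows, those of Vmn2r12, Vmn2r13, Vmn2r25, Vmn2r120 and the upstream start of Vmn2r29. Shown here are 3 of these 5 and, for contrast, the second start of Vmn2r29, with every CG in capitals.
Vmn2r29, upstream start, chr7:7278240-7278539, minus strand: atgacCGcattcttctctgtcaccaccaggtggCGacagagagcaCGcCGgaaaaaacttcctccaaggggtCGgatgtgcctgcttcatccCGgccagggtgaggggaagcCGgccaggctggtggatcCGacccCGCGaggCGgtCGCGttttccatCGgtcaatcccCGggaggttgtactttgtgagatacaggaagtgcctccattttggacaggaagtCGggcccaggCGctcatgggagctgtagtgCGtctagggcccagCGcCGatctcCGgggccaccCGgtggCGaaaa
Vmn2r29, downstream start, chr7:7247279-7247578, minus strand: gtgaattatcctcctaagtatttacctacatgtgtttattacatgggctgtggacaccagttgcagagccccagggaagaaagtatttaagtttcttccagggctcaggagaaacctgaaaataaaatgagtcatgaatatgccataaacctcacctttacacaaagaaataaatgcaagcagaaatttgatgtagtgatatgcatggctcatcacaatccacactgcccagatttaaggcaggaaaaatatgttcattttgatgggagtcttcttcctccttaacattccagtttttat
Vmn2r25, chr6:123853141-123853440, minus strand: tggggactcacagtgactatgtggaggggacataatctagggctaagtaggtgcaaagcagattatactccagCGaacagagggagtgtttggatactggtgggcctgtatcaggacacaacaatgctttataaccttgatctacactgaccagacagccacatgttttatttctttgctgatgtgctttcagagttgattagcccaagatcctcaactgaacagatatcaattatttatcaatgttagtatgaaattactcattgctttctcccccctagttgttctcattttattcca
Vmn2r120, chr17:57545265-57545564, minus strand: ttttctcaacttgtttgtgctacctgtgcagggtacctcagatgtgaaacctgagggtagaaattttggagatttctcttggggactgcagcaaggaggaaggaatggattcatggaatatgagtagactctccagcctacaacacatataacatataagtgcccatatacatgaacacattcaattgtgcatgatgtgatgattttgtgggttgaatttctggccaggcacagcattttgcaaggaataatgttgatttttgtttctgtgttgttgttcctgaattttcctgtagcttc
The upstream window of Vmn2r29 held 23 CG and its downstream window 0. No other Vmn2r window held more than 4, and the median of the 117 was 1, against a median of 7 over all windows of the same table. Of all windows, 21.5% held 23 or more CG. Of the Vmn2r windows 70.9% held at least 1 CG, against 94.6% of all windows. The upstream window of Vmn2r29 matched its nearest Vmn2r window at 46.3% of positions, whereas the downstream window matched that of Vmn2r35 at 95.3%.

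The start windows of many of these genes resemble each other closely. The median Vmn2r window matched another at 92% of its bases, 38 of 117 matched one at 95% or more, and 8 were identical to another, among them the pairs Vmn2r31 and Vmn2r33, Vmn2r32 and Vmn2r49, and Vmn2r34 and Vmn2r45. The windows of Vmn2r44 and Vmn2r31, whose regions are among the 5 highest by fold change, differed at 2 of 300 bases, which are in capitals.
Vmn2r44, chr7:8383189-8383488, minus strand: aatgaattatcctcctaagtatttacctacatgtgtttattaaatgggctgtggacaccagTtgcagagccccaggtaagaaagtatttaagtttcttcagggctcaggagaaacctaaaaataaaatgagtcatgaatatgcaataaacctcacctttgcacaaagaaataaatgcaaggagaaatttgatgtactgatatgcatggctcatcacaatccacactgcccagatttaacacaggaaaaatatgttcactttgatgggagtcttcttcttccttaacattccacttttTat
Vmn2r31, chr7:7399578-7399877, minus strand: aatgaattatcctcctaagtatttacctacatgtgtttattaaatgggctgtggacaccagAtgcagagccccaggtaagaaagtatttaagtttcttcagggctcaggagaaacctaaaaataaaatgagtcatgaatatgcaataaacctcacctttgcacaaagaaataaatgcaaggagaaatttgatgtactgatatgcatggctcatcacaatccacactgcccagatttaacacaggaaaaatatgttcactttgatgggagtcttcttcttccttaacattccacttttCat
The sources used here do not say how reads that fit several copies were placed. The sequences of the regions themselves were not compared, and most start windows lie outside any listed region. A value at one copy may hold reads of another, so copies are not taken as independent measurements.

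**Figure D1:**
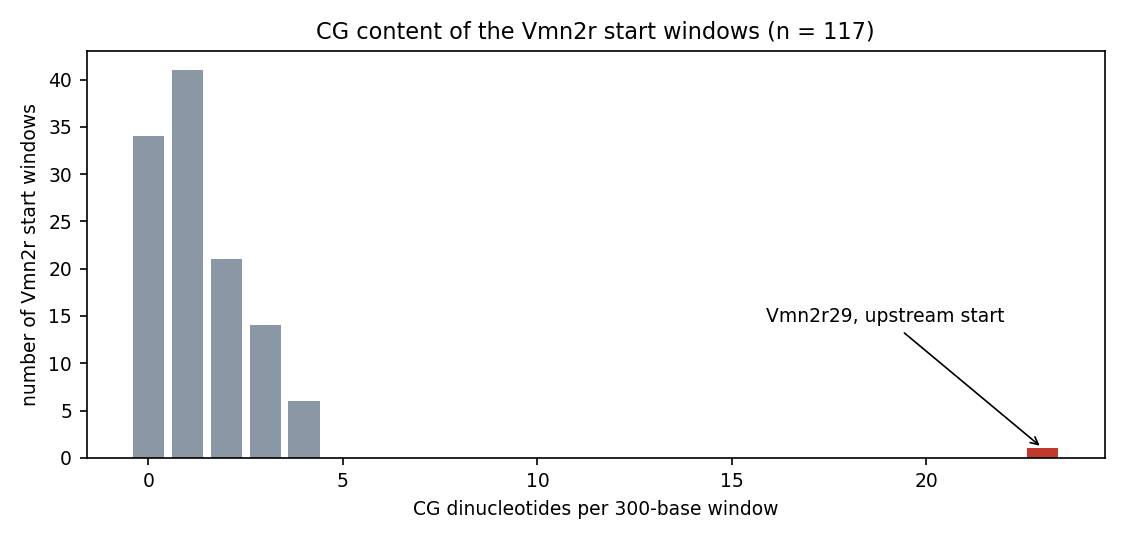
Number of CG dinucleotides in each of the 117 Vmn2r start windows of 300 bases (x axis) against the number of windows (y axis). The upstream window of Vmn2r29, in red, stands at 23, and the others hold 0 to 4.

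The values of a region are 3 normalised read numbers per genotype. The table joins them in 1 cell without naming the animals, so they are given here by their place in the cell, from the first to the third. A relative depth was taken from the value of 1 read at each place, which reflects the authors' scaling and need not equal sequencing depth. It was 17.1%, 100% and 51.9% for the KO values and 24.6%, 53.2% and 60.1% for the WT values, in listed order. The recovered reads in all listed regions gave other ratios. They were 11013650, 36400237 and 13650403 in KO and 15930092, 19610757 and 28441483 in WT. A member region held a median of 22, 102 and 66 reads in the KO libraries, in listed order, and 18, 39 and 44 in the WT libraries. No listed H3K9me3 region overlapped Setdb1, and a ChIP library does not show whether the gene was lost. The cell type was checked by H3K27ac: all 10 neural progenitor genes had a peak within 1 kb of the gene in at least 1 library and 3 of them, Nes, Pax6 and Fabp7, in all 6, compared with 3 of 8 ganglionic eminence genes in any library and 0 of 4 cortical excitatory genes. Of 8 vomeronasal neuron genes 7 had a peak in at least 1 library and 2, Calr4 and Ano1, in all 6; Gnao1, Gnai2, Gng8 and Cnga4 had one in 3 to 5. The remaining genes of that list were Omp, with no peak, and Trpc2, with a peak in 1 library. More genes of this list than of the ganglionic eminence list had a peak, so the check does not tell these cell types apart.

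H3K9me3 at Vmn2r genes was mostly higher in KO progenitors, opposite to the listed regions as a whole. The authors' deposited table lists 163 of the 192 regions (84.9%) as higher in KO and 29 as lower, each with an adjusted p of 0.05 or less. Over all 50654 listed regions it calls 28.9% higher and 71.1% lower. The regions were selected by the authors on this same contrast, so these counts are a description. The median log2 fold change in the authors' deposited table, KO over WT, was 0.79 for the members and -0.94 for all listed regions, and the members ran from -1.78 to 1.92. Regions higher in KO covered 216.1 kb and regions lower in KO 51.5 kb. By gene symbol, 68 had only higher regions and 8 had both. The 6 with only lower ones were Vmn2r29, Vmn2r46, Vmn2r57, Vmn2r87, Vmn2r-ps11 and Vmn2r-ps54.

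The higher regions were close to the genome's other higher regions in level. Per kb of region, the median over the 163 was 45.1, 34.3 and 44.5 normalised reads in KO and 22.2, 23.1 and 23.1 in WT, in listed order. The 3 WT medians thus differed by less than 1 read per kb, and all 3 KO medians lay above them. Over all listed regions higher in KO the medians were 41.8, 37.5 and 46.2 in KO and 21.5, 24.6 and 25.4 in WT. The second listed KO value, the one with the most recovered reads, was the lowest of the KO values at 114 of the 163. The 29 lower regions had medians of 21.6, 26.6 and 29.8 normalised reads per kb in KO and 45.4, 46.3 and 45.8 in WT. At all listed lower regions the KO medians were 10.9, 15.1 and 29.1, and the WT medians 41.9, 45.9 and 40.2. The members' lower regions thus kept more signal in KO than lower regions in general at the first and second listed value. Their median log2 fold change was -0.86 in the table that the authors deposited, against -1.17 for all lower regions.

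**Figure D2:**
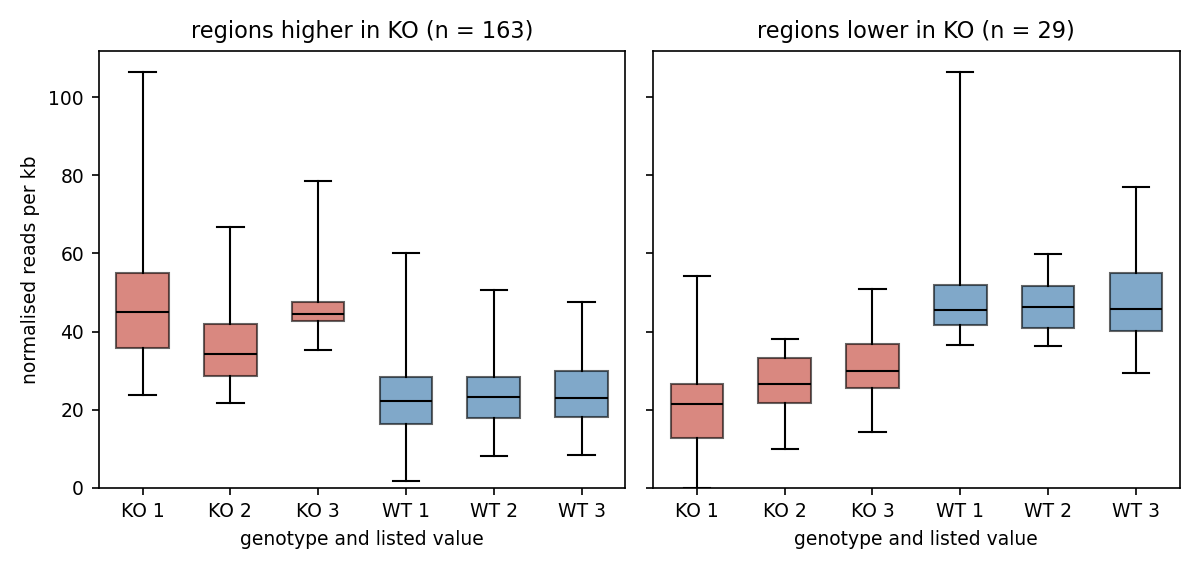
Normalised H3K9me3 reads per kb of region (y axis) at each listed value, KO in red and WT in blue, for the 163 Vmn2r regions listed as higher in KO (left) and the 29 listed as lower (right). Boxes span the quartiles with the median as a line, and whiskers reach the lowest and highest region. In the left panel the KO medians are 34.3 to 45.1 and the WT medians 22.2 to 23.1, and in the right panel they are 21.6 to 29.8 and 45.4 to 46.3.

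The authors' enrichment is a ratio whose background the table does not state. It comes from the same reads, at regions selected on this contrast, so it is a description. At the higher members its median in the authors' deposited table was 1.92 in KO and 0.93 in WT, and 106 of the 163 (65%) were below 1 in WT. At all listed higher regions the medians were 1.89 in KO and 0.91 in WT, with 59.8% below 1 in WT. At the lower members the medians were 1.01 in KO and 1.92 in WT, and 0 of the 29 were below 1 in WT. At all listed lower regions they were 0.78 in KO and 1.68 in WT, with 4.24% below 1 in WT.

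Few single regions passed limma, and the number called changed with the fit. The test with limma on log2(value + 1), fitted to all 50654 regions with Benjamini-Hochberg adjustment, called 4 of the 192 members higher and 5 lower, against 1.24% called higher and 14.9% called lower over all regions. The members' shares were 2.08% and 2.6%. At an unadjusted p under 0.05, 74 were higher and 18 lower, against 11.5% and 48.5% of all regions. A test with limma-voom on the reads recovered from the values called 81 higher (42.2%) and 21 lower (10.9%), against 14.1% and 58% of all regions. All 3 KO values stood above all 3 WT values at 123 members and below them at 22, against 20.2% and 54.2% of all regions. Among the higher regions alone this is 75.5% of the members and 69.9% of all listed, and among the lower 75.9% and 76.3%, so within one direction the members separated about as often as other listed regions did.

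The 9 regions that passed limma sat close to its threshold, with adjusted p from 0.0471 to 0.0499, and all 9 also passed limma-voom (adjusted p up to 0.032). Leaving out a single WT value, or the first or second KO value, ended all 9 calls, while all 9 held without the KO value listed last. The adjustment runs over all listed regions, and without the second KO value it gave the same adjusted p, 0.118, at all 9 (limma). The lost calls therefore cannot be read as instability of these 9 regions alone. The highest in fold change was in the body of Vmn2r44 (chr7:8377501-8379400), with 122, 42.7 and 84.9 normalised reads in KO and 33.7, 23.8 and 21.8 in WT. The groups did not overlap, and the first KO value was far above the other KO values. The log2 difference was 1.52 ± 0.43 (SE, limma adjusted p = 0.0487, higher in all 3 KO values). Without the first KO value it was 1.19. Vmn2r105 (chr17:20228801-20230500, gene body) had 56.0, 40.98 and 76.5 in KO and 23.1, 22.1 and 23.2 in WT (log2 difference 1.26 ± 0.36, SE, limma adjusted p = 0.0487). Its WT values were nearly equal and every KO value was above them. Vmn2r110 (chr17:20594001-20595400, annotated to the 3-kb promoter) had 58.6, 33.6 and 71.4 in KO and 19.5, 18.9 and 21.0 in WT. Vmn2r32 (chr7:7481801-7483600, upstream of the start) had 102, 92.4 and 74.8 in KO and 33.7, 45.1 and 40.6 in WT, with the smallest spread of the 4 higher regions. The log2 difference was 1.35 ± 0.40 at Vmn2r110 (SE, limma adjusted p = 0.0499) and 1.15 ± 0.29 at Vmn2r32 (SE, limma adjusted p = 0.0471). The start window of Vmn2r32, which lies outside this region, is identical to that of Vmn2r49. Whether the region itself shares sequence with another copy was not tested.

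On the lower side, 2 of the 5 regions belong to Vmn2r29 and are described below. Vmn2r38 (chr7:9079901-9082700, gene body) had 81.5, 67.1 and 78.2 normalised reads in KO and 145, 145 and 142 in WT. Both genotypes were tight and did not overlap (log2 difference -0.93 ± 0.24, SE, limma adjusted p = 0.0475). Vmn2r57 (chr7:41433601-41435700) had 51.0, 32.7 and 53.8 in KO and 108, 101 and 84.1 in WT. The pseudogene Vmn2r-ps11 (chr3:64657901-64660600) had 43.3, 39.7 and 75.6 in KO and 128, 107 and 112 in WT. For both, the groups did not overlap, and the log2 difference was -1.10 ± 0.31 at Vmn2r57 (SE, limma adjusted p = 0.0486) and -1.17 ± 0.32 at Vmn2r-ps11 (SE, limma adjusted p = 0.0483).

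**Figure D3:**
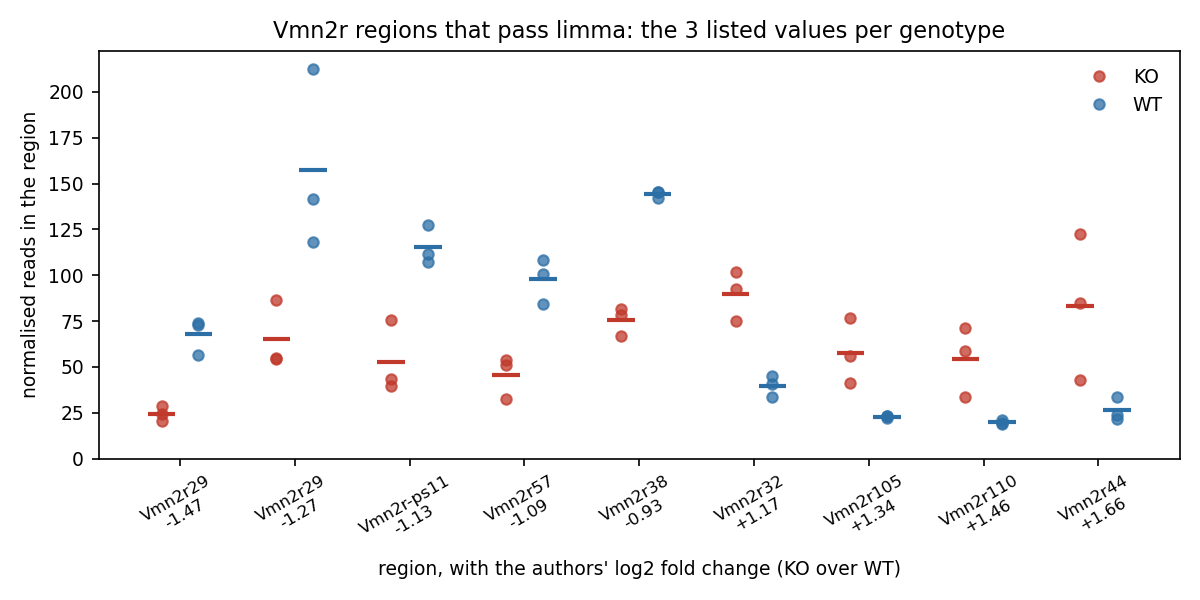
Normalised H3K9me3 reads (y axis) at the 9 Vmn2r regions that passed limma (x axis, with the authors' log2 fold change, KO over WT), with the 3 listed values per genotype as points and their mean as a line, KO in red left of WT in blue. At all 9 the KO and WT points do not overlap.

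Of the 5 highest and 5 lowest regions by fold change 3 passed limma, those of Vmn2r44 and Vmn2r29, and 7 did not. Vmn2r124 (chr17:18053301-18054300), the highest of the 192, had 30.6, 31.0 and 52.1 normalised reads in KO and 10.64, 10.66 and 8.70 in WT, which rest on 12, 71 and 62 reads in KO and 6, 13 and 12 in WT (limma adjusted p = 0.067, higher in all 3 KO values). Vmn2r120 (chr17:57545301-57546300), a region that covers the gene's start, had 33.1, 51.0 and 44.5 in KO and 1.77, 14.8 and 18.9 in WT. The first WT value there is a single read. Vmn2r31 (chr7:7392901-7394100) had 61.1, 33.6 and 51.3 in KO and 17.7, 19.7 and 10.9 in WT, and Vmn2r73 (chr7:85868901-85869900) had 30.6, 31.4 and 50.4 in KO and 15.95, 11.5 and 12.3 in WT. At the other end, Vmn2r-ps11 had a region (chr3:64813701-64814700) with 0, 21.8 and 14.3 in KO and 51.4, 41.01 and 31.9 in WT. Vmn2r81 (chr10:79258101-79259200) had 10.19, 10.9 and 32.8 in KO and 44.3, 51.7 and 46.4 in WT, and Vmn2r58 (chr7:41845401-41846400) had 10.19, 21.4 and 22.7 in KO and 47.9, 39.4 and 42.8 in WT. In all 7 of these regions every KO value lay on one side of every WT value. They were picked by fold change on these same values, which favours such separation, so this is a description. Among all listed regions 69.9% of the higher and 76.3% of the lower ones separated likewise.

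Direction differed between the genes' chromosome clusters. With a gap of 1 Mb as the divide, the 192 regions fell into 14 clusters. On chromosome 17, 57 of 58 regions were listed as higher in KO. The first cluster there (18.1 to 20.6 Mb, 20 symbols from Vmn2r124 and Vmn2r91 to Vmn2r110) had 45 higher regions and 1 lower, over 63.5 kb. Summed over its regions, it had 44.7, 33.4 and 44.3 normalised reads per kb in KO and 23, 23.4 and 22.4 in WT. The Vmn2r114 cluster (23.3 to 23.5 Mb) had 9 of 9 regions higher but the smallest changes, 0.44 to 1.10 on the log2 scale in the authors' deposited table. Its levels were 57.5, 43.6 and 59.4 per kb in KO and 32.4, 39.3 and 35.6 in WT, so the second listed values of KO and WT stood close together. The start windows of Vmn2r114 and Vmn2r115 match at 99.3% of bases.

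Chromosome 7 held 105 members at 41 symbols, 85 higher and 20 lower. The cluster at 84.9 to 87.0 Mb, with 10 symbols from Vmn2r65 to Vmn2r78, had 20 of 20 regions higher and a median of 1.10 for the authors' deposited log2 fold change. Its summed levels were 45.3, 30.6 and 43.6 normalised reads per kb in KO and 21.8, 16.7 and 19.6 in WT. The cluster from 7253201 to 10170300 had 34 higher and 14 lower regions at 19 symbols, and that at 41.4 to 42.9 Mb had 22 higher and 6 lower at 8 symbols. These 2 clusters held 20 of the 29 lower regions. All 8 regions at Vmn2r53, Vmn2r54 and Vmn2r55 (12.6 to 12.7 Mb) and the 1 region at Vmn2r28 were higher. Between 5 and 35 Mb on this chromosome 43 of 57 members were higher.

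On chromosome 6 all 10 regions, at Vmn2r19 to Vmn2r26, were higher in KO, and on chromosome 5 9 of 10 at Vmn2r9 to Vmn2r17 were. The lead regions there were Vmn2r24 (chr6:123783801-123785200), with 40.8, 56.7 and 68.9 normalised reads in KO and 10.64, 32.8 and 23.2 in WT, and Vmn2r12 (chr5:109096701-109098400), with 58.6, 58.0 and 96.7 in KO and 39.0, 30.4 and 38.4 in WT. At both, all KO values lay above all WT values, and the limma adjusted p was 0.058 and 0.061. The clusters with up to 3 regions differed in direction: all 3 regions at Vmn2r120 on chromosome 17 were higher, all 3 on chromosome 3 and both at Vmn2r87 on chromosome 10 were lower, and Vmn2r81 and Vmn2r123 had 1 region in each direction. Family C itself had no member region: 0 of the 7 genes Vmn2r1 to Vmn2r7 on chromosome 3 were named in the table. A single listed region without a symbol (chr3:64170501-64172200) touched the RefSeq bodies of Vmn2r1 and Vmn2r2, with 45.9, 19.2 and 35.3 normalised reads in KO and 70.9, 110 and 58.7 in WT.

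**Figure D4:**
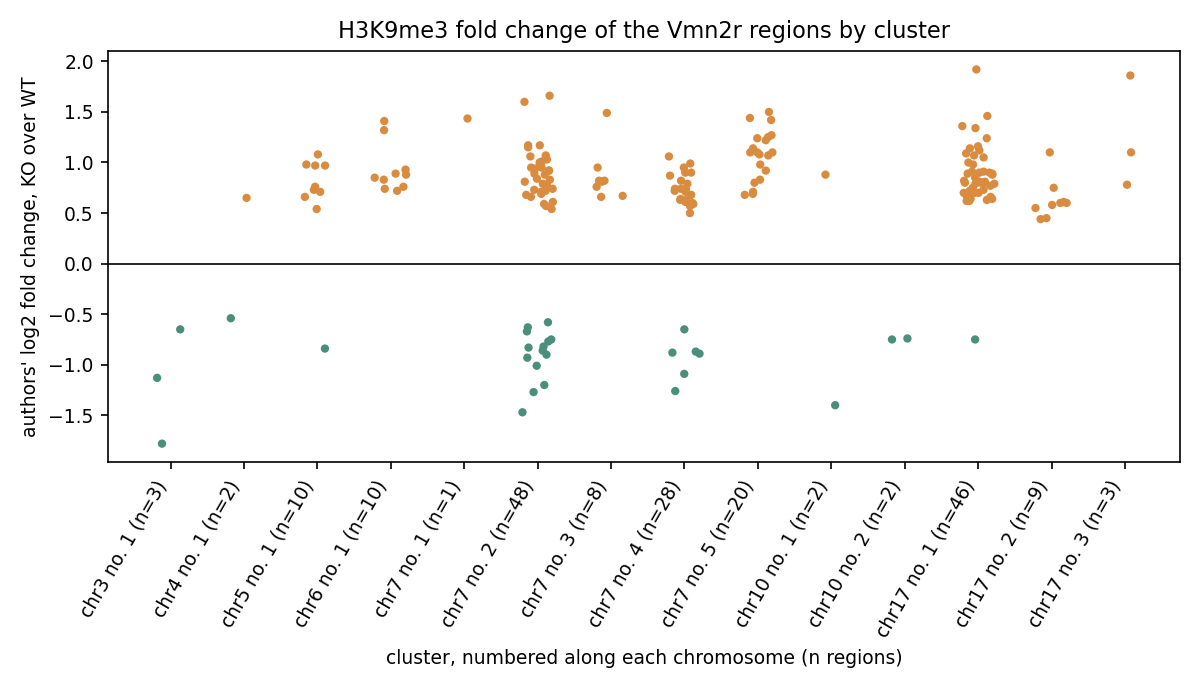
Log2 fold change of H3K9me3, KO over WT, from the authors' deposited table (y axis) for each of the 192 Vmn2r regions, by cluster numbered along its chromosome (x axis). Points above 0 are listed as higher in KO and points below 0 as lower. Most lower regions are in clusters 2 and 4 of chromosome 7, with 14 and 6.

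Within 8 genes, neighbouring regions were listed in opposite directions: Vmn2r13, Vmn2r35, Vmn2r38, Vmn2r58, Vmn2r60, Vmn2r81, Vmn2r92 and Vmn2r123. In all 8 the lower regions had the higher level per kb in WT and the lower level in KO, which the choice of regions on this contrast favours. In Vmn2r35 the 5 lower regions formed a run from 7794701 to 7811900 on chromosome 7, inside the gene, with 26.98 normalised reads per kb in KO and 46.2 in WT over 11 kb. The 4 higher regions lay on both sides of the run, with 46.8 in KO and 27.5 in WT over 4.9 kb. The longest region of the run (chr7:7805901-7810000) had 96.8, 99.4 and 126 normalised reads in KO and 183, 181 and 205 in WT, without overlap (limma adjusted p = 0.0501). At the promoter of the same gene (chr7:7820201-7821200) the values were 58.6, 24.0 and 43.7 in KO and 12.4, 17.2 and 36.3 in WT, which overlap.

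Vmn2r60 showed the same arrangement. Its 2 lower regions lay together at chr7:42170301-42175600, 55.4 and 58.2 kb into the gene. The first had 99.4, 113 and 76.5 normalised reads in KO and 170, 150 and 132 in WT, and the second had 33.1, 60.6 and 66.4 in KO and 65.6, 107 and 121 in WT. The first did not overlap between genotypes and the second did, narrowly. The 7 higher regions on both sides had 44.8 normalised reads per kb in KO and 27.5 in WT. None of the Vmn2r60 regions passed limma (adjusted p from 0.072 to 0.184). Over the whole family 14 of the 29 lower regions lay within 50 kb of a higher one, the nearest 0.8 kb away.

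**Figure D5:**
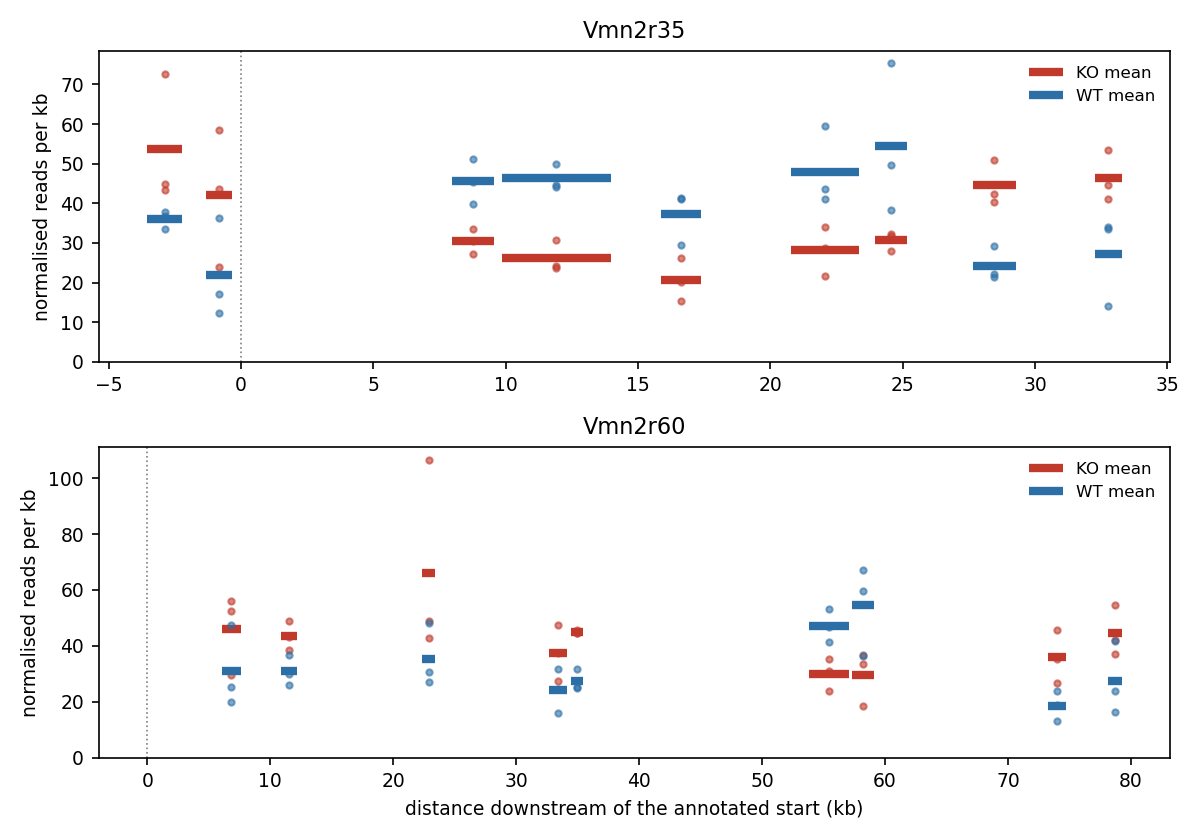
Normalised H3K9me3 reads per kb (y axis) at the 9 listed regions each of Vmn2r35 (top) and Vmn2r60 (bottom) by distance downstream of the start in the authors' annotation (x axis, dotted line at 0), with bars for the mean over a region, points for the 3 listed values, KO in red and WT in blue. In both genes KO bars lie above WT bars on the flanks and below them in an inner stretch, 5 regions in Vmn2r35 and 2 in Vmn2r60.

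Both directions were found mostly in gene bodies. Of the 163 higher regions 134 were annotated to gene bodies, 24 to the 3-kb promoter, 4 to the 1-kb promoter and 1 to the proximal promoter. Of the 29 lower regions the numbers were 27, 1, 0 and 1. Among gene-body regions the median position was 61.2% of the way along the gene for higher and 60.8% for lower regions, and the median distance from the start was 15.1 kb for higher and 20.2 kb for lower regions. Higher members had a median length of 1300 bp and lower members of 1600 bp. The 2 proximal-promoter regions went opposite ways, at Vmn2r25 and at Vmn2r29.

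Vmn2r29 stood apart from the other Vmn2r genes in several measures. All 5 of its regions were lower in KO, spread from its upstream start to 25.1 kb downstream. The region at the upstream start, the one with 23 CG in its window (chr7:7277101-7279100), had 86.6, 54.5 and 54.6 normalised reads in KO and 213, 118 and 141 in WT. No KO value reached the lowest WT value (log2 difference -1.25 ± 0.33, SE, limma adjusted p = 0.0475). At 78.7 normalised reads per kb in WT it was the highest WT level among the 192 members. The region 7.8 to 9.3 kb downstream (chr7:7269001-7270500) had 20.4, 24.4 and 28.6 in KO and 56.7, 73.0 and 74.0 in WT, again without overlap (log2 difference -1.44 ± 0.32, SE, limma adjusted p = 0.0471). The other 3 regions had 17.6 to 28.5 normalised reads per kb in KO and 40.3 to 53.4 in WT.

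The same start carried H3K27ac. A peak just downstream of the upstream start was called in all 6 H3K27ac libraries, inside the region of lower H3K9me3. Its fold enrichment from the authors' peak caller was 8.01, 5.13 and 5.13 in the KO libraries and 7.52, 4.99 and 3.66 in the WT libraries, and peak scores of libraries called separately were not compared further. Its near edge lay 48, 67 and 94 bases downstream of the start in KO and 31, 62 and 103 in WT. The upstream start is the end of Vmn2r29 that faces Clcn4, the gene of a chloride and proton exchanger, which begins or ends 4.02 kb away. The second start lies 31 kb further into Vmn2r29. Whether transcription from the CG-rich start makes a receptor was not tested.

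H3K27ac peaks were also called at some other Vmn2r genes. RefSeq lists 251 Vmn2r genes on chromosomes 1 to 19, 123 coding and 128 pseudogenes. A peak lay in or within 1 kb of 9 of them: the coding genes Vmn2r20, Vmn2r21, Vmn2r22 and Vmn2r29, and the pseudogenes Vmn2r-ps15, Vmn2r-ps16, Vmn2r-ps17, Vmn2r-ps23 and Vmn2r-ps89. In all 6 libraries a peak was found only at Vmn2r29 and Vmn2r-ps23. The share of all RefSeq genes with a peak by the same rule is not given here, so these gene counts are a description. The lists put 4, 12 and 9 peaks at Vmn2r genes in KO and 3, 13 and 11 in WT, out of 26393, 42712 and 11502 peaks in KO and 31951, 37342 and 12505 in WT. Of the 192 H3K9me3 regions, 2 overlapped a peak in any library, both at Vmn2r29, while 2.43% of all listed regions did. A gene without a peak is not shown to lack acetylation, since the depth of these libraries is unknown.

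The choice of members by the table's symbols leaves out many gene copies. Of the 82 symbols 81 were in RefSeq, and Vmn2r123 was not. Among the member regions 167 overlapped only the RefSeq gene of their own symbol, and 22 touched no RefSeq Vmn2r gene. A symbol need not be a single gene copy: regions of Vmn2r46 were annotated to 2 starts and those of Vmn2r47 to 3. By symbol, 79 of 123 coding genes had a listed region and 44 had none, as against 2 of 128 pseudogenes. When regions were instead chosen for overlap with a RefSeq Vmn2r gene body, 340 qualified, of which 208 were higher and 132 lower. At coding genes the split was 145 higher and 25 lower, much as by symbol, with 0.79 as the median of the authors' deposited log2 fold changes. At regions that touched only pseudogenes it was 63 higher and 107 lower, with a median of -0.41. Of these, chromosome 4 had 11 higher and 71 lower, mostly in the long annotated bodies of Vmn2r-ps15, Vmn2r-ps16 and Vmn2r-ps17, chromosome 5 had 0 and 15, chromosome 13 had 2 and 12, chromosome 3 had 0 and 3, and chromosome 6 had 6 and 0. On chromosome 7 pseudogene-only regions were 30 higher and 4 lower, and on chromosome 17 14 and 2.

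The authors' scaling sets where 0 lies. Median-ratio scaling over the listed regions moved the median log2 difference of all regions upward by 0.81. Under it limma called 163 members higher and 0 lower, against 27.7% and 5.97% of all regions. Such a shift moves values upward only, so it can turn lower members alone. It put 10 of the 29 above 0: 4 of Vmn2r35 and 1 each of Vmn2r38, Vmn2r46, Vmn2r60, Vmn2r92, Vmn2r123 and Vmn2r-ps11. The median over all listed regions was then -0.23, and these 10 regions lay above it. Of the 2 scalings compared, their direction as lower in KO holds under the authors' scaling only. The median-ratio factors were taken from regions selected on this contrast, of which 71.1% were listed as lower. Which scaling is right was not tested.

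The other large chemoreceptor families had a similar listed direction. Of the Vmn1r regions, at genes for the type 1 receptors of apical vomeronasal neurons, 84 were higher and 3 lower in KO (96.6% higher), and of the olfactory receptor (Olfr) regions 256 were higher and 14 lower (94.8% higher). The Vmn2r share of 84.9% was the lowest of the 3, and that difference was not tested, since neighbouring regions share chromatin. The median log2 fold changes of the higher regions in the authors' deposited table were 0.82 for Vmn2r, 0.77 for Vmn1r and 0.94 for Olfr.

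Genes that act with Vmn2r receptors were listed in both directions. Of 19 genes of vomeronasal signal transduction 7 had a listed region, 38 regions higher and 21 lower, of which limma called 1 and 3. The limma shares over all listed regions were 1.24% higher and 14.9% lower. All 38 higher regions were at 1 gene, Ano2, a calcium-activated chloride channel, where the region at chr6:125759201-125761700 had 81.5, 115 and 124 normalised reads in KO and 30.1, 53.3 and 58.7 in WT without overlap (limma adjusted p = 0.0497). All 6 regions of Gnao1, the gene of Gαo, were lower, by -0.79 to -1.79 on the log2 scale in the authors' deposited table. The H2-Mv genes, which encode class Ib molecules made by part of the same neurons, had 4 regions, all higher, at H2-M1, H2-M9 and H2-M11. At H2-M9 (chr17:36639001-36641500) the values were 110, 73.3 and 107 in KO and 47.9, 46.8 and 44.2 in WT (limma adjusted p = 0.0488). None of 7 formyl peptide receptor genes, which mark other vomeronasal neurons, had a listed region.

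Genes for the ligands were listed mostly in the direction of the receptors. Of 26 peptide pheromone genes 11 had regions, 23 higher and 2 lower, of which limma called 2 higher and 0 lower and limma-voom 15 and 1. Over all listed regions limma called 1.24% higher and 14.9% lower, and limma-voom 14.1% and 58%. The exocrine gland-secreting peptide gene Esp34 had 3 higher regions, of which the middle one (chr17:38554101-38555100) had 33.1, 42.7 and 45.4 in KO and 7.09, 14.8 and 24.7 in WT. Its values did not overlap, whereas those of the others did. It did not pass limma (adjusted p = 0.0703) or limma-voom (adjusted p = 0.0721). The major urinary protein symbol Mup15 had 7 higher and 2 lower regions, so here too both directions stood under one symbol. These regions ran from 60083501 to 61440900 on chromosome 4, so Mup15 need not be a single gene copy here. Its region chr4:60133801-60135700 had 84.1, 78.9 and 89.1 in KO and 35.5, 39.4 and 46.4 in WT (limma adjusted p = 0.0479).

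Class C receptors that are used outside the vomeronasal organ went the other way. Of 15 such genes 9 had regions, 1 higher and 47 lower, of which limma called 0 and 17 and limma-voom 0 and 42. Among all listed regions the shares called lower were 14.9% by limma and 58% by limma-voom. The metabotropic glutamate receptor gene Grm5 had 19 lower regions. The GABA-B receptor gene Gabbr2 had 6, among them chr4:46907301-46909200 with 17.8, 11.3 and 40.3 normalised reads in KO and 74.5, 84.5 and 84.8 in WT (limma adjusted p = 0.0471). The only higher region was at Grm7 (chr6:110815801-110816800), with 30.6, 23.5 and 43.7 in KO and 7.09, 16.4 and 6.52 in WT, and it did not pass limma (adjusted p = 0.11). Relative to all listed regions, of which 71.1% were lower, these receptors followed the listed majority and the Vmn2r genes did not.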

How the data were processed

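Native ChIP-seq libraries of 100000 nuclei were made per the labels. The submitters' processing notes name mm10 as the build and, as tools, MACS2 and Bowtie2 2.3.4.3. The deposited H3K9me3 table joins 3 normalised values per genotype for regions built from windows of 1000 bp; for the tool that compared the genotypes, nothing is stated. Its mean per genotype is a signal after normalisation by the authors. Its log2 fold changes run KO over WT, per the file headers. Each region has the authors' own p-value, raw and adjusted. The deposited H3K27ac peak lists, 1 per library, hold a score, a fold enrichment (a ratio) and, on the -log10 scale, p and q as the authors' caller wrote them.

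The members and gene lists were chosen with earlier results of these data known. limma 3.58.1 (R 4.3.3) with a mean-variance trend was fitted to log2(value + 1) of all listed regions with Benjamini-Hochberg adjustment, and was tested on simulated data. The log2 differences are on that scale, where the added 1 shrinks changes of low values. The authors' log2 fold changes compare means and are not on it. A log2 difference can still be the larger, as at Vmn2r-ps11 (chr3:64813701-64814700), with -2.57 against -1.78. Values were whole multiples of 1 read (tolerance 0.1 reads, 100% of low values at each position), and the recovered reads were tested with limma-voom. The replicates are separate animals, and the leading title numbers were not in the model. Named regions are those that pass limma, the region with the smallest authors' p per cluster, the 5 highest and 5 lowest by fold change, the 3 with the highest WT mean, and genes with both directions, the most regions or a peak. Some were not described singly. Peaks were assigned to genes with 1 kb on each side, and the H3K27ac depth is unknown. Alternatives covered pseudocounts, a filter, scaling, left-out values, thresholds and gene assignment. Lists of vascular genes and of microglia and blood genes were checked for other cell types. Of the vascular genes 2 of 3 had a peak in any library, and Pecam1 had one in all 6. Of the microglia and blood genes 1 of 4 had a peak.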

Additional observations from a re-analysis of the deposited data

How the results depend on the processing

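The limma calls among the members depend on the setting. With the pseudocount at 5, limma called 26 members higher and 10 lower in place of 4 and 5. With median-ratio scaling it called 163 and 0, against 27.7% and 5.97% of all regions. On recovered reads limma-voom called 81 and 21, against 14.1% and 58%. With one listed value left out the limma calls ran from 0 to 37 higher and 0 to 21 lower, and the highest counts came without the third KO value. For the pseudocount of 5 and for left-out values in either fit, the share of all regions called is not given here. Those counts are therefore not read as a trait of the members. The limma-voom calls, with left-out values chosen after seeing the data, ran from 21 to 111 higher and 8 to 21 lower. No member changed sign when one value was left out, which the authors' selection of regions on this contrast favours. The median log2 difference was 0.78, and 1.58 under median-ratio scaling, where 4 named lower regions turned: Vmn2r60 to 0.18, Vmn2r35 to 0.0033, Vmn2r123 to 0.32 and Vmn2r92 to 0.12. Of the authors' 163 higher and 29 lower calls, 44 and 9 had an absolute log2 fold change of 1 or more. The share of all listed regions at that threshold is not given here, so neither count is read as a trait of the members. With each gene counted once there were 70 and 12 calls, and by overlap with RefSeq bodies the lower count was 132. The count of Vmn2r genes with an H3K27ac peak in all 6 libraries fell to 0, against 2, at -log10 q of 5 or more. The cause of these shifts was not tested. The edgeR alternative was not run, and limma-voom is the fit on recovered reads. No paired analysis was possible because the joined values carry no animal number. The first listed values rest on the fewest reads per member, with a median of 22 in KO and 18 in WT.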
